A study of Homo sapiens with 6 samples.

Results

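The 10 genes described here encode the alpha and beta tubulins that make up microtubules, and they were read in SW780, a human bladder cancer cell line, with and without RC48. RC48 (disitamab vedotin) is an antibody raised against ERBB2 (HER2), a receptor on the cell surface, and linked to monomethyl auristatin E, a drug that binds tubulin and depolymerises microtubules. Every gene row whose symbol was TUBA1A, TUBA1B, TUBA1C, TUBB, TUBB2A, TUBB2B, TUBB3, TUBB4A, TUBB4B or TUBB6 was taken, which gave 10 of 16390 genes listed in each library. The 6 RNA-seq libraries were 3 of SW780 labelled Control and 3 of SW780 labelled RC48, the latter exposed to 25 µg/ml per the study's methods, which give no time of exposure for this experiment. No allele, second agent or transgene was named for either group. All cells came from 1 line, and nothing says that the 3 libraries of a group came from separate cultures, so every p-value measures only the spread between these libraries, which may be technical.

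A microtubule is built from dimers of 1 alpha and 1 beta tubulin, and vertebrates carry several genes, called isotypes, for each. Most dividing cells rely on a few widely expressed isotypes, whereas others are known mainly from neurons. Tubulin mRNA is also under autoregulation: when free dimers accumulate, for example after a drug depolymerises microtubules, ribosomes that are translating tubulin mRNA are recognised through the first residues of the new protein by TTC5, which through SCAPER brings in the CCR4-NOT deadenylase, and the mRNA is degraded. Auristatins bind beta tubulin, and the neuronal isotype TUBB3 is known in the drug literature for its association with resistance to tubulin-binding agents.

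The coding starts of the 10 genes are shown because they hold the residues that autoregulation reads. In each line the first 24 coding bases are given from 5′ to 3′ on the coding strand, taken from the GENCODE release 29 annotation of GRCh38. Capitals mark codons 2 to 4, read as arginine, glutamate and then isoleucine in the beta tubulins or cysteine in the alpha tubulins.
TUBB: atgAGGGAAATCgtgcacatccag
TUBB2A: atgCGCGAGATCgtgcacatccag
TUBB2B: atgCGTGAGATCgtgcacatccag
TUBB3: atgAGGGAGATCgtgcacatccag
TUBB4A: atgCGGGAGATCgtgcacctgcag
TUBB4B: atgAGGGAAATCgtgcacttgcag
TUBB6: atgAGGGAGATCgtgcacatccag
TUBA1A: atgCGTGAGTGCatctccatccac
TUBA1B: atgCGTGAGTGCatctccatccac
TUBA1C: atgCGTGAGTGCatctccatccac

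TUBA1A, TUBA1B and TUBA1C were identical over these 24 bases, and TUBB3 and TUBB6 were identical to each other, whereas the beta genes used different codons for the same residues. Of 19584 protein-coding genes whose start could be read, 19 (0.097%) opened with these residues, and all 19 were alpha or beta tubulins. The gamma, delta and epsilon tubulins did not share the start, as TUBG1 and TUBE1 show.
TUBG1: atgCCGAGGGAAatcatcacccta
TUBE1: atgACCCAGTCGgtggtcgtacag

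The 3 alpha genes lie close together on chromosome 12 of GRCh38, with TUBA1B at chr12:49127782-49131397 and TUBA1A at chr12:49184796-49189324 on the minus strand, and TUBA1C at chr12:49188736-49274603 on the plus strand. The spans of TUBA1A and TUBA1C overlap on opposite strands, and the library protocol is not said to keep strand. The beta genes are scattered, with TUBB at chr6:30720201-30725426, TUBB4B at chr9:137241213-137243707 and TUBB3 at chr16:89921392-89938761, all on the plus strand. TUBB2A (chr6:3153669-3157526) and TUBB2B (chr6:3224261-3231730), both on the minus strand, are neighbours. TUBB4A lies at chr19:6494319-6502848 on the minus strand and TUBB6 at chr18:12307669-12344320 on the plus strand. The reference transcript of each of the 10 genes has 4 exons.

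Near-identical isotypes share sequence, which limits how well reads are assigned. The coding sequences of TUBA1A and TUBA1B were 97.2% identical and those of TUBB2A and TUBB2B 98.2%, against 81.0% for TUBB and TUBB6. Protein-coding transcripts alone were searched for shared stretches, so pseudogenes and noncoding genes were not covered. Every stretch of 100 bases in the TUBB, TUBB4A and TUBB6 transcripts occurred in no other gene searched. That share was 97.1% for TUBB4B, 94.9% for TUBB3 when the annotated readthrough gene over it was not counted, 88.5% for TUBA1C, 81.4% for TUBA1A, 67.9% for TUBA1B, 57.6% for TUBB2B and 45.6% for TUBB2A. The deposited counts are estimates in which such reads were divided between genes, so the split between TUBB2A and TUBB2B and, less so, among the 3 alpha genes is uncertain.

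Library totals ran from 16453233 to 17988030 estimated counts, and 13055 genes, including all 10 tubulins, had enough counts to be tested. The RC48 libraries stood apart from one another. In RC48 replicates 1 and 3 the ratio of each gene to its Control mean rose with the GC content of its transcripts (Spearman rho across 12981 genes, which are not independent, 0.743 and 0.570), whereas in RC48 replicate 2 it did not (rho = -0.0168). In replicate 1 the median log2 ratio ran from -1.01 in the 10% of genes lowest in GC to 0.66 in the 10% highest. The 10 tubulins were all above the middle of that range, with GC contents from 51.5% (TUBA1C) to 63.7% (TUBB4A), so their values moved with this trend, and they are given below both as measured and after the trend of each library was taken out (GC correction). Whether the trend came from the libraries or from the cells was not tested.

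In the Control cells tubulin mRNA was dominated by 4 isotypes. In TPM, a measure of transcript abundance per unit of length that allows genes to be compared, TUBA1B stood at 2909 ± 77.7 (SD, n = 3), TUBB at 1423 ± 7.75, TUBB4B at 850.0 ± 14.2 and TUBA1C at 699 ± 18.6. These are the widely expressed isotypes, and each neighbouring pair in this order differed by more than its spread. TUBA1A, best known from developing neurons, followed at 141 ± 1.47 TPM. TUBB2A, a beta isotype prominent in brain, was at 20.4 ± 1.19 TPM and TUBB3 at 15.9 ± 1.01 TPM. TUBB6 (1.37 ± 0.227 TPM), TUBB2B (0.747 ± 0.251 TPM) and TUBB4A (0.283 ± 0.236 TPM) were the lowest, and the ranges of 1 SD around TUBB2B and TUBB4A overlapped. TUBB2B and TUBB4A are known mainly from the nervous system, and TUBB4A rested on 2, 11 and 4 estimated counts in the Control libraries. By mean normalised count, TUBA1B ranked 15 and TUBB 25 among all genes.

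The abundant isotypes were lower in RC48 replicates 2 and 3 than in any Control library, but not in replicate 1. Normalised counts (CPM, counts scaled to library size with edgeR's TMM factors) of TUBA1B were 2183, 2232 and 2098 in Control replicates 1 to 3, and 2808, 1392 and 1688 in RC48 replicates 1 to 3. RC48 replicate 1 was thus the highest of the 6 libraries and replicate 2 the lowest, and the groups overlapped. The log2 fold change of TUBA1B was -0.15 (SE 0.24, adjusted p = 0.702, quasi-likelihood test of edgeR, p-values adjusted by Benjamini-Hochberg across all genes tested). In bulk RNA, fewer cells of a kind and less of an mRNA per cell cannot be told apart.

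TUBB, the main beta isotype of dividing cells, was at 1835, 1818 and 1670 CPM in Control and at 1689, 1128 and 1275 CPM in RC48. RC48 replicates 2 and 3 lay far below Control, while replicate 1 was just above the lowest Control library. TUBB was the abundant isotype with the largest decrease, with a log2 fold change of -0.38 (SE 0.16), but it did not pass the test (edgeR adjusted p = 0.258). After GC correction all 3 RC48 libraries were below all 3 Control libraries, at log2 ratios to the Control mean of -0.44, -0.68 and -0.65 in replicates 1 to 3. In that fit TUBB fell by 0.58 on the log2 scale (SE 0.093, edgeR adjusted p = 0.0113), a level 0.667 times that of Control.

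TUBB4B, a widely expressed beta isotype also used in cilia, was at 634, 619 and 562 CPM in Control and at 848, 410 and 508 CPM in RC48. RC48 replicate 1 was above every Control library and replicates 2 and 3 were below every one. The log2 fold change was -0.04 (SE 0.25, edgeR adjusted p = 0.924) as measured and -0.44 (SE 0.11, adjusted p = 0.0504) after GC correction, where the RC48 libraries were all lower. TUBA1B behaved alike after the correction, with a log2 fold change of -0.43 (SE 0.13, edgeR adjusted p = 0.103) and all 3 RC48 libraries lower.

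TUBA1C, the third widely expressed alpha isotype, was at 699, 717 and 646 CPM in Control and at 1067, 519 and 641 CPM in RC48. The groups overlapped, with RC48 replicate 1 highest and replicate 2 lowest, and replicate 3 just below the lowest Control library. Its log2 fold change was 0.11 (SE 0.25, edgeR adjusted p = 0.778) as measured and -0.07 (SE 0.18, adjusted p = 0.822) after GC correction.

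TUBA1A and TUBB3 were higher in every RC48 library than in every Control library. TUBA1A was at 113, 114 and 104 CPM in Control and at 256, 124 and 151 CPM in RC48. TUBB3 was at 13.7, 13.3 and 11.1 CPM in Control and at 38.4, 15.0 and 18.9 CPM in RC48. For both genes RC48 replicate 1 stood well above the other two RC48 libraries, and replicate 2 was the nearest to Control. The log2 fold change was 0.68 (SE 0.25, edgeR adjusted p = 0.225) for TUBA1A and 0.93 (SE 0.34, adjusted p = 0.217) for TUBB3, neither past the threshold of 0.05. After GC correction the groups still did not overlap, and the log2 fold changes were 0.43 (SE 0.16, edgeR adjusted p = 0.153) and 0.49 (SE 0.17, adjusted p = 0.137). Of 10 tubulins, 2 were thus higher in all RC48 libraries as measured, where 17.4% of all genes tested were, and after GC correction 2 were higher in all and 3 (TUBB, TUBB4B and TUBA1B) lower in all, where 13% and 20.5% of genes tested were.

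**Figure D1:**
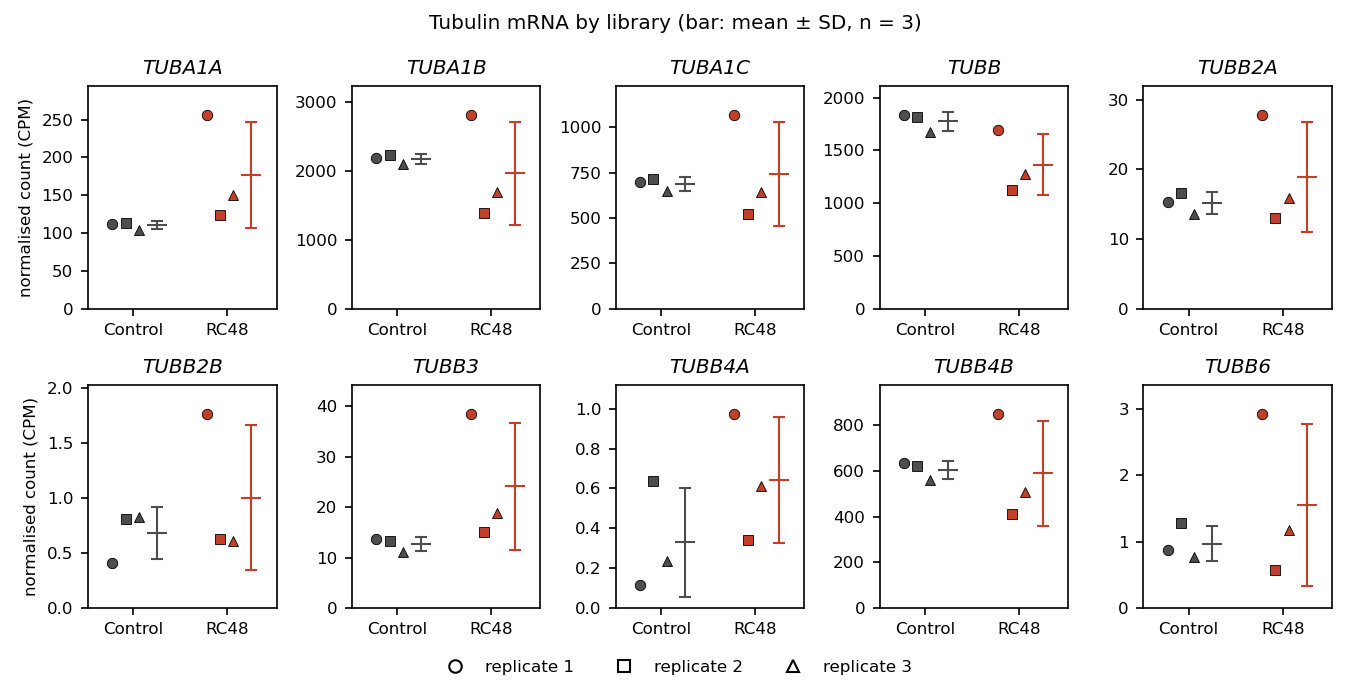
Normalised counts (CPM, vertical axes, each from 0 and on its own scale) of the 10 tubulin isotypes in Control (grey) and RC48 (red) libraries, with the replicate number as the symbol and the mean ± SD (n = 3) beside the points. RC48 replicate 1 is the highest RC48 library in every panel, and the groups do not overlap for TUBA1A and TUBB3.

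The 4 scarce beta isotypes did not separate the groups. TUBB2A was at 15.3, 16.6 and 13.5 CPM in Control and at 27.8, 13.0 and 15.9 CPM in RC48, with a log2 fold change of 0.32 (SE 0.28, edgeR adjusted p = 0.469). Its direction turned after GC correction, to -0.08. TUBB6, an isotype of broad but usually low expression, had 0.867, 1.27 and 0.765 CPM in Control and 2.92, 0.571 and 1.17 CPM in RC48. TUBB2B ranged from 0.405 to 0.824 CPM in Control and from 0.612 to 1.76 CPM in RC48, and TUBB4A from 0.116 to 0.637 CPM and from 0.343 to 0.972 CPM. For these 3 genes the sums over a group were 17 to 50.2 estimated counts in Control and 33 to 78.6 in RC48, and the edgeR adjusted p-values were 0.364 to 0.499. TUBB6 ran from 9.5 to 48.3 estimated counts among the RC48 libraries, and the parts of depth and of the spread between libraries were not tested.

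Across the family, 0 of 10 tubulins passed an adjusted p of 0.05 in edgeR, where 2.21% of all genes tested did (288 of 13055), and 0 passed in DESeq2, where 5.7% did. At an unadjusted p under 0.05 there were 3 of 10 in both tools (TUBB lower, TUBB3 and TUBA1A higher), where 19.1% of all genes tested were in edgeR and 21.2% in DESeq2. The median log2 fold change of the 10 tubulins was 0.43 against 0.02 over all genes tested, with 7 above 0 and 3 below. After GC correction 1 of 10 passed (TUBB), where 6.29% of genes tested did, and the median was 0.07 against -0.06, with 5 above 0 and 5 below.

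These calls depended on which libraries were kept. Without replicate 1, TUBB fell by 0.57, TUBB4B by 0.40 and TUBA1B by 0.50 on the log2 scale, and all 3 passed (edgeR adjusted p = 0.00338, 0.0481 and 0.0108), where 6.82% of genes tested did. TUBB3 and TUBA1A were then at log2 fold changes of 0.41 and 0.31 and did not pass (edgeR adjusted p = 0.117 and 0.123). Without replicate 2, those 3 did not pass, and TUBB3 and TUBA1A were higher and passed, with log2 fold changes of 1.17 and 0.88 (edgeR adjusted p = 0.0261 for each), where 28.3% of genes tested did. With GC correction and without replicate 1, TUBB, TUBB4B, TUBA1B and TUBA1C all fell and passed, by 0.66, 0.55, 0.61 and 0.34 on the log2 scale (edgeR adjusted p = 0.000318, 0.000822, 0.000366 and 0.0292), where 11.5% of genes tested passed. With GC correction and without replicate 2, TUBB was lower (log2 fold change -0.54, edgeR adjusted p = 0.0156) and TUBB3 (0.59, adjusted p = 0.0471) and TUBA1A (0.56, adjusted p = 0.0386) were higher, where 17.8% of genes tested passed. Other models called more isotypes. Voom with sample weights called 6 of 10 (TUBB, TUBB4B and TUBA1B lower, TUBB3, TUBB4A and TUBA1A higher), where 61.4% of all genes passed, and limma on the TPM of the 5 libraries with deposited values called 3 (TUBB lower, TUBB3 and TUBA1A higher), where 22.2% did. TUBB also passed with GC correction and the replicate number as a block (3.58% of genes) and with GC correction without Control replicate 3 (2.22% of genes). With GC correction TUBB did not pass without Control replicate 1, Control replicate 2 or RC48 replicate 3 (edgeR adjusted p = 0.0781, 0.0707 and 0.0645). TUBB was below Control and TUBB3 and TUBA1A above Control in sign in all 24 alternative fits, and they passed in 8, 4 and 4 of these.

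**Figure D2:**
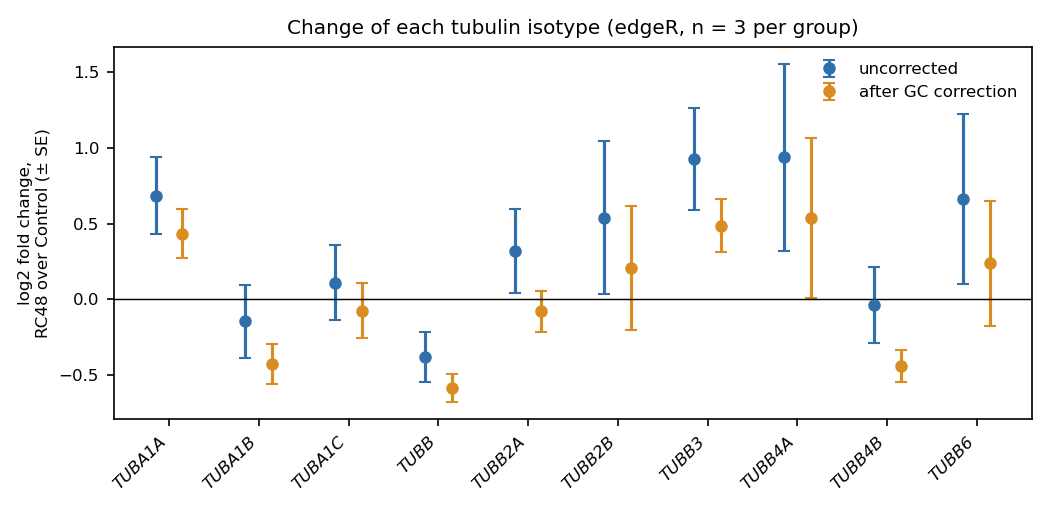
Log2 fold change of RC48 over Control (vertical axis, points ± SE from edgeR, 3 libraries per group) for each tubulin isotype as measured (blue) and after GC correction (orange). The correction lowers every value, from -0.38 to -0.58 for TUBB and from 0.93 to 0.49 for TUBB3, and leaves TUBB the only isotype past the threshold.

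**Figure D3:**
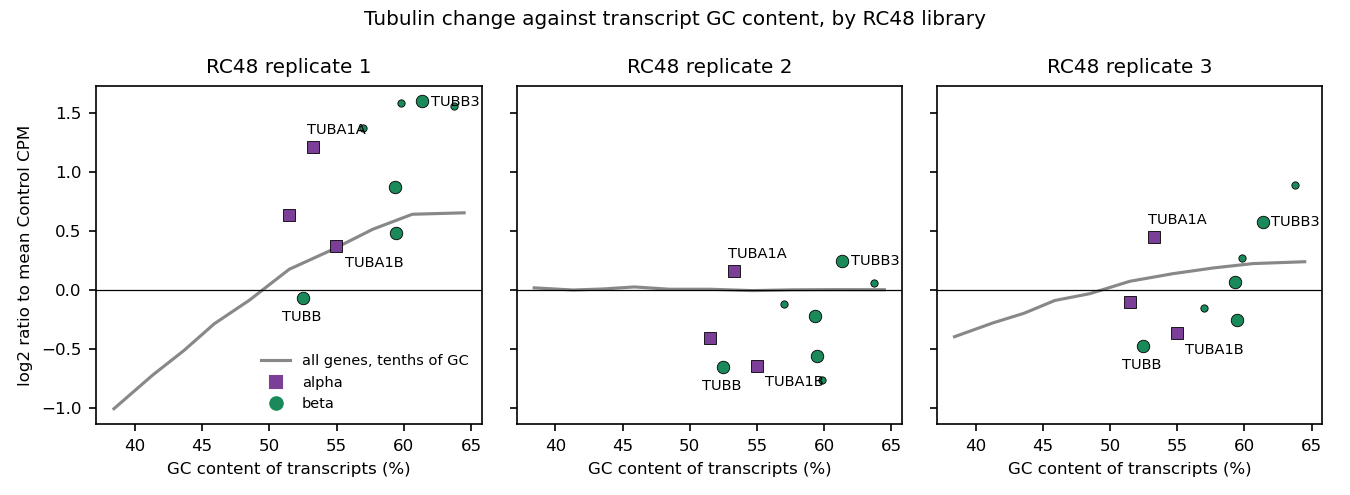
Log2 ratio of each tubulin isotype to its Control mean (vertical axis) against the GC content of its transcripts (horizontal axis, percent), in each RC48 library, with alpha isotypes as squares and beta isotypes as circles (small circles for the isotypes under 5 CPM in Control) and the grey line joining the medians of all genes in 10 bands of GC content. The line is steep in replicate 1 and flat in replicate 2, and in every panel TUBA1A and TUBB3 lie above it and TUBB below it.

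Set against the genes of like GC content in the same library, TUBB, TUBA1B and TUBB4B were below the trend in all 3 RC48 libraries and TUBA1A, TUBB3 and TUBB4A above it, while the other 4 isotypes changed sides. The values of TUBB are given above. TUBA1A was at GC-corrected log2 ratios of 0.80, 0.15 and 0.27 in RC48 replicates 1 to 3, and TUBB3 at 0.83, 0.24 and 0.29. TUBA1B (-0.13, -0.64 and -0.56) and TUBB4B (-0.24, -0.57 and -0.53) were nearest to it in replicate 1. TUBA1C was above it in replicate 1 (0.33) and below it in replicates 2 and 3 (-0.43 and -0.25). The scarce TUBB6 was the highest of the 10 in replicate 1 (0.86) and the lowest in replicate 2 (-0.77), and TUBB2B ran from 0.76 in replicate 1 to -0.39 in replicate 3.

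The makeup of tubulin mRNA, taken within each library as the share of the summed TPM of the 10 genes, varied less between the RC48 libraries than the levels did. TPM was deposited for 5 libraries and was computed from the estimated counts for RC48 replicate 2. TUBA1A made up 2.32%, 2.33% and 2.33% of tubulin mRNA in Control and 4.21%, 3.88% and 3.96% in RC48. The means were 2.33% ± 0.00584 and 4.01% ± 0.174 (SD, n = 3), a ratio of 1.72, and the RC48 libraries lay close together and far above Control. With 3 libraries against 3, the exact two-sided permutation test cannot give a p below 0.1, which is the value of every share that separated the groups, so none could pass 0.05.

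The share of TUBA1C was 11.5% ± 0.359 in Control and 13.4% ± 0.421 in RC48, that of TUBB3 0.263% ± 0.0190 and 0.521% ± 0.0850, and that of TUBB2A 0.336% ± 0.0208 and 0.446% ± 0.0257 (SD, n = 3), each with all RC48 libraries above all Control libraries (exact permutation p = 0.1). TUBB was the isotype whose share was lower in every RC48 library, at 23.8%, 23.4% and 23.3% in Control and 17.9%, 22.4% and 21.0% in RC48 (exact permutation p = 0.1). Replicate 1, with the highest summed level, had the lowest TUBB share. The shares of TUBA1B (48.0% ± 0.826 in Control and 46.6% ± 1.13 in RC48) and TUBB4B (14.0% ± 0.352 and 14.6% ± 0.496) overlapped between the groups, as did those of TUBB2B, TUBB4A and TUBB6, each under 0.1% in every library. In all, 5 of 10 shares separated the groups, 4 higher and 1 lower, and the same 5 separated after GC correction, when TUBA1B also did, as lower. Adjusted over the 10 shares, the exact permutation p of each of the 5 was 0.2. Shares of 1 sum are tied to one another, so these are not 5 separate results. No like count of shares exists over all genes. In CPM, 17.4% of all genes tested were higher and 14.1% lower in every RC48 library.

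**Figure D4:**
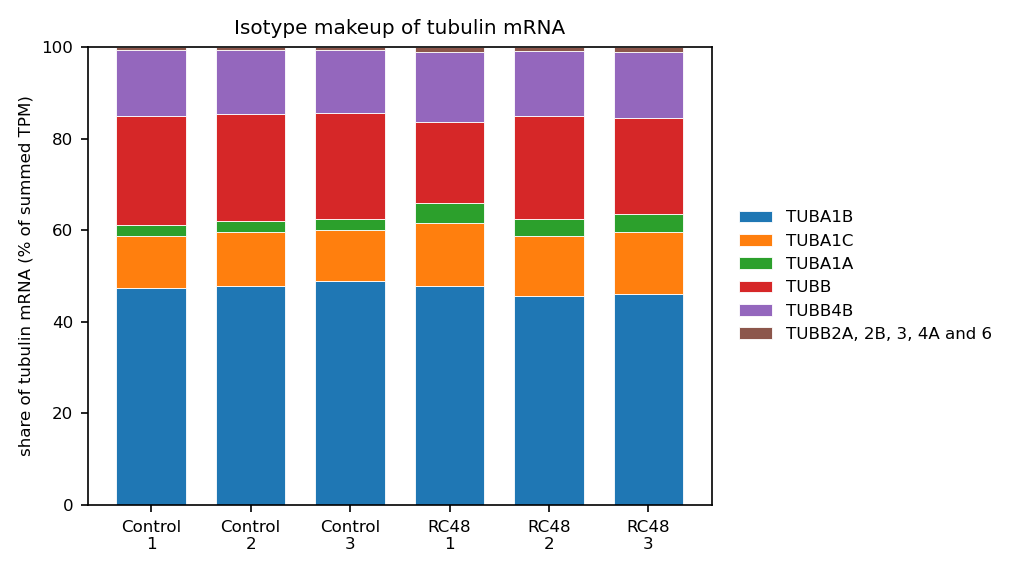
Share of each isotype in tubulin mRNA (vertical axis, percent of the summed TPM of the 10 genes, from 0 to 100) in each library, with the 5 scarce beta isotypes stacked as 1 segment. TUBA1A takes 2.33% in Control and 4.01% in RC48 on average, and TUBB 23.5% and 20.4%.

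TUBA1B, TUBB, TUBB4B and TUBA1C together made up 97.0% to 97.1% of tubulin mRNA in Control and 94.6% to 95.2% in RC48. The 3 alpha genes made up 61.1%, 62.0% and 62.4% in Control and 65.8%, 62.5% and 63.5% in RC48. All RC48 libraries were above all Control libraries, but replicate 2, whose TPM was computed, was above Control replicate 3 by less than the 0.50 percentage points by which a computed share could miss the deposited one. The mean difference was 2.11 percentage points, and no test was run on this summed share.

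Ratios within the alpha and within the beta genes gave the difference in makeup without the summed level. These ratios were chosen after the shares had been seen and are given as a description. TUBA1A relative to TUBA1B, genes that differ by 1.69 percentage points in GC content, was 0.0491, 0.0488 and 0.0476 in Control and 0.0880, 0.0848 and 0.0858 in RC48. As measured, the 3 RC48 libraries thus agreed in this ratio to within a few percent, although their TUBA1A levels ranged from 124 to 256 CPM. The ratios were not GC corrected. After GC correction the RC48 libraries lay further apart in the shares of TUBA1A (SD 0.279 against 0.174 as measured) and TUBA1C (SD 1.38 against 0.421). The TUBA1A share was then 4.39%, 3.86% and 3.99% in RC48 replicates 1 to 3, and both shares still separated the groups. TUBA1C relative to TUBA1B was 0.244, 0.249 and 0.228 in Control and 0.288, 0.283 and 0.290 in RC48. Among the beta genes, TUBB3 relative to TUBB4B was 0.0193, 0.0192 and 0.0176 in Control and 0.0409, 0.0326 and 0.0333 in RC48, and TUBB2A relative to TUBB4B was 0.0230, 0.0257 and 0.0231 against 0.0314, 0.0302 and 0.0301. Pairs with TUBB spread more among the RC48 libraries. TUBB4B relative to TUBB was 0.606, 0.595 and 0.591 in Control and 0.847, 0.631 and 0.693 in RC48. These genes differ by 6.98 percentage points in GC content, more than any other pair given. After GC correction the shares in RC48 replicates 1 to 3 were 12.7%, 14.1% and 13.7% for TUBB4B and 19.3%, 22.2% and 21.3% for TUBB. The part of the GC trend in the spread of this ratio was not tested. Between the families, TUBB relative to TUBA1B overlapped, at 0.503, 0.489 and 0.476 in Control and 0.373, 0.490 and 0.455 in RC48. TUBA1A and TUBA1C relative to TUBB were higher in every RC48 library.

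**Figure D5:**
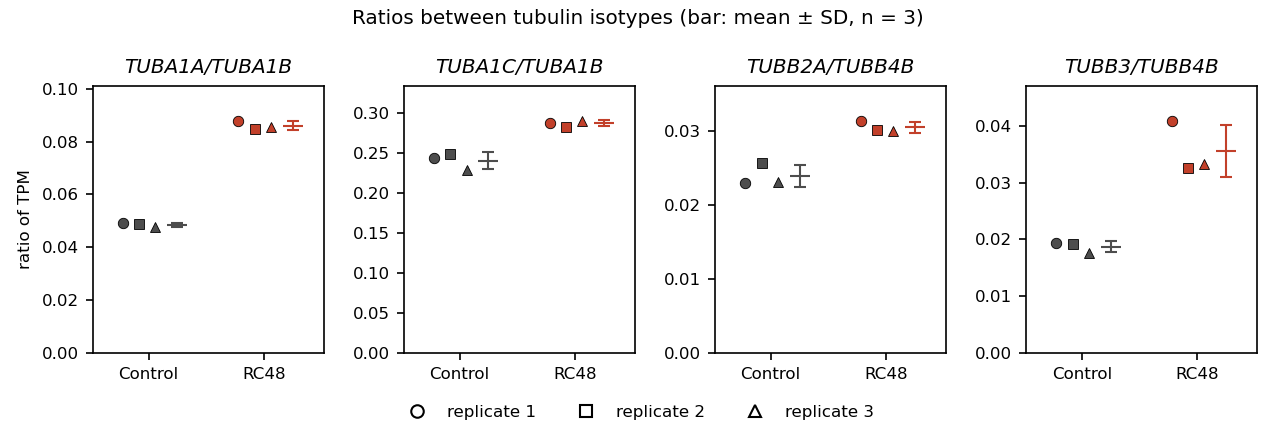
Ratios of TPM between pairs of isotypes (vertical axes from 0) in Control (grey) and RC48 (red) libraries, with the replicate number as the symbol and the mean ± SD (n = 3) beside the points. TUBA1A over TUBA1B sits between 0.0476 and 0.0491 in Control and between 0.0848 and 0.0880 in RC48. The ratios are as measured, without GC correction. None of the pairs shown overlaps between the groups, and the pairs with TUBB are not shown.

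The summed level of the 10 tubulins did not separate the groups as measured. It was 6008, 6052 and 6122 TPM in Control and 6664, 4180 and 4600 TPM in RC48, so RC48 replicates 2 and 3 were at 0.690 and 0.759 times the Control mean and replicate 1 at 1.10 times. The 7 beta genes alone were lower in every RC48 library, at 2276, 1566 and 1680 TPM against 2335, 2298 and 2302 TPM in Control, with replicate 1 only just below. In CPM, which is not per length, the same 7 genes overlapped between the groups, and RC48 replicate 1 (2608 CPM) was above every Control library (2499, 2470 and 2258 CPM). After GC correction the summed TPM of the 10 genes was at 0.790, 0.685 and 0.662 times the Control mean in RC48 replicates 1 to 3, lower in all 3. The 10 genes took 0.527% to 0.563% of all estimated counts in Control and 0.623%, 0.365% and 0.429% in RC48.

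The remaining alpha and beta tubulins share the same start residues but were scarce. Of 8 on the list, 7 had a row and 3 had enough counts to test, and together the 7 made up 1.63% to 1.81% of alpha and beta tubulin mRNA in Control and 1.86% to 2.12% in RC48. TUBA4A, an alpha isotype abundant in platelets and mature neurons, carried most of it, with 102 ± 9.38 CPM in Control and 109 ± 45.8 CPM in RC48 (SD, n = 3, log2 fold change 0.10, edgeR adjusted p = 0.818). TUBA8 (log2 fold change 0.40, adjusted p = 0.407) and TUBB1, the platelet isotype (-0.09, adjusted p = 0.906), were each under 2.5 CPM in every library. TUBA3C, TUBA3D, TUBAL3 and TUBB8 had at most 7.61 estimated counts in any library. None of the 3 passed the test in either direction, where 2.21% of all genes tested did (edgeR, 0 also at an unadjusted p under 0.05, where 19.1% were). TUBA4A passed as lower with GC correction and without RC48 replicate 1 (log2 fold change -0.42, edgeR adjusted p = 0.0145), where 11.5% of genes tested passed, and in voom with sample weights (-0.19, adjusted p = 0.0268), where 61.4% did.

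The gamma, delta and epsilon tubulins, which serve microtubule nucleation and centrioles and lack the start residues, were set beside them. TUBG1, the main gamma tubulin of the nucleating ring complex, was at 161, 158 and 140 CPM in Control and at 267, 122 and 153 CPM in RC48. This is the same order of RC48 libraries as for TUBA1B, with replicate 1 highest and replicate 2 lowest. The log2 fold changes were 0.24 for TUBG1, 0.17 for TUBG2, 0.13 for TUBD1 and -0.46 for TUBE1 (edgeR adjusted p = 0.569, 0.719, 0.694 and 0.305). Of these 4, 0 passed in edgeR, also at an unadjusted p under 0.05, where 2.21% and 19.1% of all genes tested did. After GC correction 0 passed, where 6.29% of genes tested did. With GC correction and without RC48 replicate 1, TUBG1 and TUBG2 passed as lower, with log2 fold changes of -0.29 and -0.44 (edgeR adjusted p = 0.0386 and 0.00859), and TUBD1 as higher (0.43, adjusted p = 0.0466), where 11.5% of genes tested passed. Without RC48 replicate 2 and with no GC correction, TUBE1 passed as lower (-0.71, edgeR adjusted p = 0.0409), where 28.3% of genes tested passed.

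Of 12 factors of tubulin mRNA autoregulation, the TTC5 and SCAPER adaptors and subunits of CCR4-NOT, 0 passed in edgeR (0 also at an unadjusted p under 0.05). Over all genes tested 2.21% passed and 19.1% had an unadjusted p under 0.05. The median log2 fold change of the 12 was -0.12. After GC correction 0 of the 12 passed, where 6.29% of genes tested did, and the median was -0.10. Without RC48 replicate 2 and with no GC correction, CNOT6 and CNOT6L passed as lower (-0.56 and -0.73, edgeR adjusted p = 0.0388 and 0.0290), where 28.3% of genes tested passed. With GC correction and without RC48 replicate 2, neither passed (-0.063 and -0.16, edgeR adjusted p = 0.641 and 0.254). TTC5, which recognises the nascent tubulin chain, was at 25.4 ± 2.24 CPM in Control and 25.5 ± 4.35 CPM in RC48 (SD, n = 3, log2 fold change 0.00, SE 0.16, edgeR adjusted p = 0.984). SCAPER, the link from TTC5 to the deadenylase, had a log2 fold change of -0.29 (SE 0.21, adjusted p = 0.393). CNOT11, the subunit that SCAPER contacts, had -0.31 (SE 0.16, adjusted p = 0.301), and the scaffold CNOT1 -0.09 (SE 0.13, adjusted p = 0.665). All 12 genes were above 1 CPM in every library.

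Folding and modification genes likewise gave no call as measured. Over all genes tested, 2.21% passed in edgeR and 19.1% had an unadjusted p under 0.05. Prefoldin and the CCT chaperonin, which fold new tubulin, had 0 of 14 past the threshold in edgeR (0 at an unadjusted p under 0.05) and a median log2 fold change of -0.09. CCT6A and CCT8 had the smallest p-values, with log2 fold changes of -0.24 and -0.30 (edgeR adjusted p = 0.285 and 0.286). The tubulin folding cofactors, which assemble the alpha-beta dimer, had 0 of 6 past the threshold (1 at an unadjusted p under 0.05) and a median of 0.09. TBCB, an alpha tubulin cofactor, was at 108 ± 9.61 CPM in Control and 150 ± 39.3 CPM in RC48 (log2 fold change 0.47, edgeR adjusted p = 0.247), and TBCA, a beta tubulin cofactor, at 95.0 ± 7.30 and 64.1 ± 33.6 CPM (-0.57, adjusted p = 0.358). Of 24 tubulin modifying enzymes 23 had a row and 20 were tested, with 0 past the threshold, 4 at an unadjusted p under 0.05 and a median of 0.00. TTLL1, the catalytic subunit of a polyglutamylase, and TPGS1, another subunit of the same complex, had the smallest p-values, with log2 fold changes of 0.92 and 0.55 (edgeR adjusted p = 0.135 and 0.142). After GC correction 1 gene of these lists passed, where 6.29% of genes tested did. It was TTLL12, a member of the tubulin tyrosine ligase-like family, which fell by 0.48 on the log2 scale (edgeR adjusted p = 0.0175).

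The cells carried luminal urothelial genes, as the line is known for. Of 8 luminal markers 6 were above 1 CPM in every library. ERBB2, the target of RC48, was among them, at 205 ± 3.05 CPM in Control and 229 ± 46.3 CPM in RC48 (SD, n = 3, log2 fold change as measured 0.16, edgeR adjusted p = 0.342). Of the 7 tested, 5 had a log2 fold change above 0 and 1 passed, where 2.21% of all genes tested did. That 1 was KRT20, which was scarce and lower in RC48 (0.667 ± 0.290 against 1.98 ± 0.0439 CPM, log2 fold change -1.55, edgeR adjusted p = 0.0489). After GC correction 2 of the 7 were above 0 and KRT20 alone passed again, where 6.29% of genes tested did. In that fit 3 of the 7, ERBB2 among them, had an unadjusted p under 0.05 (edgeR), where 25% of genes tested did. With GC correction and without RC48 replicate 1, 0 of the 7, ERBB2 included, were above 0, and 3 passed as lower, where 11.5% of genes tested passed. The direction of ERBB2 thus depended on the fit. The basal markers with a row, 4 of 6, were also all above 1 CPM in every library. They summed to 333 to 352 CPM in Control and 310 to 343 CPM in RC48. The luminal markers summed to 778 to 793 CPM in Control and 709 to 895 CPM in RC48. Of the basal markers 0 passed the threshold (edgeR, 1 at an unadjusted p under 0.05, where 19.1% of all genes tested were), with log2 fold changes of 0.68 for KRT14, 0.45 for KRT5, -0.08 for CD44 and -0.18 for KRT6A (adjusted p = 0.233, 0.307, 0.622 and 0.688). Of the leukocyte markers PTPRC, which defines leukocytes, had at most 1 count in any library, and the summed level of the 4 with a row was 17.3 to 18.1 CPM in Control and 18.6 to 36.4 CPM in RC48, nearly all of it CD68, a macrophage gene also made by other cells (log2 fold change 0.53, edgeR adjusted p = 0.274), with CD3E at 0.232 to 1.40 CPM (1.64, adjusted p = 0.113). The 6 fibroblast and endothelial markers summed to 300.4 to 339 CPM in Control and 401 to 485 CPM in RC48, most of it COL3A1. COL3A1 and COL1A1, fibrillar collagens, had log2 fold changes of 0.55 and 0.74 (edgeR adjusted p = 0.0843 and 0.124). Of the 5 tested 0 passed (3 at an unadjusted p under 0.05, where 19.1% of all genes tested were). After GC correction 2 of the 5 passed, both as lower, where 6.29% of genes tested did. These were the endothelial genes PECAM1 and VWF (log2 fold changes -0.52 and -0.86, edgeR adjusted p = 0.0186 and 0.0176). Their part in the tubulin values was not tested.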

How the data were processed

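Per the labels and the study's methods, total RNA of SW780 cells was sequenced at BGI, reads were aligned with Bowtie2 and quantified with RSEM, and the submitters' processing notes name hg38 as the build; versions are not given in the sources used here. The authors deposited estimated counts per gene for 6 libraries and TPM, transcript abundance per unit of length, for 5. Gene-level estimated counts, of which 11.7% to 15.0% per library were not whole, were rounded, filtered with filterByExpr and tested in edgeR 4.0.16 (TMM, quasi-likelihood test, 3 Control against 3 RC48, Benjamini-Hochberg over 13055 genes). TPM of RC48 replicate 2 was computed from its counts with lengths taken from the other libraries. Held out in the same way, RC48 replicate 3 differed from its deposited TPM by a median of 0.00979 on the log2 scale and replicate 1 by 0.175, nearly all of it a constant shift that leaves shares alone (largest difference of a share 0.50 percentage points).

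GC correction removed a loess trend (span 0.3) of each library on transcript GC content, known for 99.0% of genes, as an offset. Alternatives were DESeq2 1.42.0, limma 3.58.1 on log2(TPM + 1) with and without the computed library, voom with sample weights, other scalings and filters, a replicate block, and each library left out. The test script was tested on simulated data. The members and gene lists were chosen with earlier results of these data known. Genes named are all listed tubulins, TTC5, SCAPER, CNOT1 and CNOT11 and, per other list, up to 4 called genes or else the 2 with the smallest p. ERBB2, TTLL12, PTPRC, CD44, KRT6A, PECAM1, VWF, CNOT6 and CNOT6L were named after their values were seen. As most alike, the 5 genes outside the lists with a mean of at least 10 CPM and the highest Pearson r to the log2 summed tubulin CPM are named.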

Additional observations from a re-analysis of the deposited data

How the results depend on the processing

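Counts of all genes called, 288 as given, were 744 in DESeq2, 2894 in limma on TPM of 5 libraries, 8018 in voom with sample weights and 821 with GC correction. They ran from 68 to 3726 with a library left out, lowest without Control replicate 3 and highest without RC48 replicate 2, and with GC correction they were 1508 without RC48 replicate 1 and 2353 without RC48 replicate 2. Tubulins called, 0 as given, were 3 in limma on TPM of 5 libraries, 6 in voom (TUBB3, TUBB4A and TUBA1A higher, TUBB, TUBB4B and TUBA1B lower), 1 with GC correction, and 0 to 3 with a library left out. With GC correction and a library left out they were 1 without Control replicate 3, 4 without RC48 replicate 1, 3 without RC48 replicate 2 and 0 otherwise. Genes called in the other tubulin and pathway lists, 0 as given, were 11 in limma on TPM of 5 libraries, 28 in voom, 1 with GC correction, 1 without RC48 replicate 1 (6 with GC correction) and 11 without RC48 replicate 2 (1 with GC correction).

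The labels do not say whether libraries of the same replicate number were paired. Deviations of same-numbered libraries from their group means correlated at 0.0260, -0.161 and -0.0147. Those of differently numbered libraries correlated at -0.136 to 0.169. With 3 libraries per group and the GC trend in RC48, these values cannot settle whether the libraries were paired. With the replicate number as a block 331 genes and 0 tubulins were called, and with the block and GC correction 467 genes and 1 tubulin (TUBB, edgeR adjusted p = 0.0202).

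Signs turned for 6 isotypes, and in the turned direction a call was made for TUBA1C alone, with GC correction and without RC48 replicate 1. With a library left out, log2 fold changes ran from -0.075 to 0.53 for TUBB2A, -0.14 to 0.78 for TUBB2B, -0.16 to 1.06 for TUBB6, -0.40 to 0.16 for TUBB4B (0.028 without RC48 replicate 3), -0.50 to 0.048 for TUBA1B and -0.25 to 0.31 for TUBA1C. With GC correction TUBB2A was at -0.078 and TUBA1C at -0.075, and with the block added at -0.086 and -0.11. With GC correction and a library left out, TUBB2A was at -0.086, -0.021 and -0.14 without Control replicates 1 to 3 and at -0.22, -0.013 and -0.043 without RC48 replicates 1 to 3, and TUBA1C at -0.060, -0.047 and -0.13 without Control replicates 1 to 3 and at -0.34 and -0.024 without RC48 replicates 1 and 3. TUBB2B was at -0.066 without Control replicate 1 and -0.26 without RC48 replicate 1, and TUBB6 at -0.31 without RC48 replicate 1. TUBA1C was at -0.051 and -0.052 in limma on TPM of 6 libraries (pseudocounts 1 and 0.1) and -0.13 in voom. The share difference of TUBB4B was -0.496 percentage points with GC correction. The cause was not tested. The alpha share and the summed level kept their direction in all 9 alternatives, from 1.16 to 3.27 percentage points and from -0.49 to -0.11 on the log2 scale. The fits that leave out a library under GC correction were added after seeing the data.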

Other observations

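The genes whose level over the 6 libraries was most like the summed tubulin CPM were DGKA (Pearson r = 0.9994), SSH3 (0.9987), QPCTL (0.9977), SHMT1 (0.9964) and ALDOC (0.9954), of 9930 genes with a mean of at least 10 CPM outside the lists. The value is a description over 6 libraries that fall into groups, and 213 genes were above 0.9. SSH3, a cofilin phosphatase, was at 207, 211 and 197 CPM in Control and at 237, 162 and 179 CPM in RC48, again with RC48 replicate 1 highest and replicate 2 lowest. Its log2 fold change was -0.09 (edgeR adjusted p = 0.708), and -0.47 (adjusted p = 0.0182) after GC correction.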
